A study of Mus musculus with 12 samples.

Results

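The genes described here are 2 neurotrophins, Bdnf and Ntf3, their receptors Ntrk2, Ntrk3 and Ngfr, and the related growth factor Gdnf with its receptors Gfra1 and Ret. The probes of these genes were chosen by the gene symbol printed in the array files, and all 8 symbols were found among 19505 genes, on 84 of 165865 probes. The samples came from the apical turn, the middle turn and the basal turn of cochleae of male C57BL/6 mice aged 6 weeks, 4 arrays per turn, with no treatment or transgene in any group. The study used 4 mice and describes the 4 arrays of a turn as samples from independent mice, so the turns share animals. The labels do not say whether arrays with the same number came from the same animal, so the arrays were treated as independent. The p-values thus measure the spread between the arrays, which may be partly technical. By the study's methods the bony capsule was removed, and each piece held lateral wall, organ of Corti and spiral ganglion together, so several cell types are mixed in every sample. Each array was an exon array, with several probes of 60 bases along most genes, hybridized with cRNA labeled from 25 ng of total RNA. All 4 arrays of a turn shared 1 slide and no slide held a second turn, so slide and turn cannot be told apart in any comparison.

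Neurotrophins are secreted proteins that keep sensory neurons alive and guide their innervation. In the inner ear, hair cells and supporting cells make BDNF and NT-3, the product of Ntf3, and spiral ganglion neurons take them up through the receptor tyrosine kinases TrkB (Ntrk2) and TrkC (Ntrk3), while Ngfr encodes p75, a receptor that binds all neurotrophins and is also found on Schwann cells. Both Trk genes also make short receptors that have the binding domain and the membrane-spanning segment but lack the kinase, and the short TrkB is known from glia and other non-neuronal cells. GDNF signals through the co-receptor GFRa1 and the receptor tyrosine kinase RET.

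Values are scaled signals, in arbitrary units, and a gene's value is the mean of the log2 signals of its probes. Signals of different probes cannot be set against each other. A probe is called detected here when the scanner software marked it as well above background on each of the 4 arrays of some turn. A gene or probe was called when limma's adjusted p was under 0.05. Between apex and base, 3 of 8 genes were called (Ntf3, Ngfr and Gfra1), all with the apex higher, against 17.6% of all genes called with the apex higher and 21.6% with the base higher. Between middle turn and base 2 of 8 were called, Ntf3 and Ngfr, both with the middle turn higher, against 11.6% of all genes in that direction and 9.23% in the other. Between apex and middle turn only Gfra1 was called, with the apex higher, against 4.42% of all genes in that direction and 7.61% in the other. The median log2 fold change of the 8 genes was 0.26, 0.16 and 0.05 for these comparisons in this order, and that of all genes was -0.04, 0.04 and -0.07. When arrays were scaled to the spike-in controls instead, the median of all genes in the apex against the base moved to -0.45, the share of called genes that were higher in the apex fell from 44.9% to 6.41%, and of the 8 genes Ngfr was called with the apex higher and Bdnf, Ntrk2 and Ret with the apex lower. All directions given here are relative to the bulk of genes on the same arrays.

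**Figure D1:**
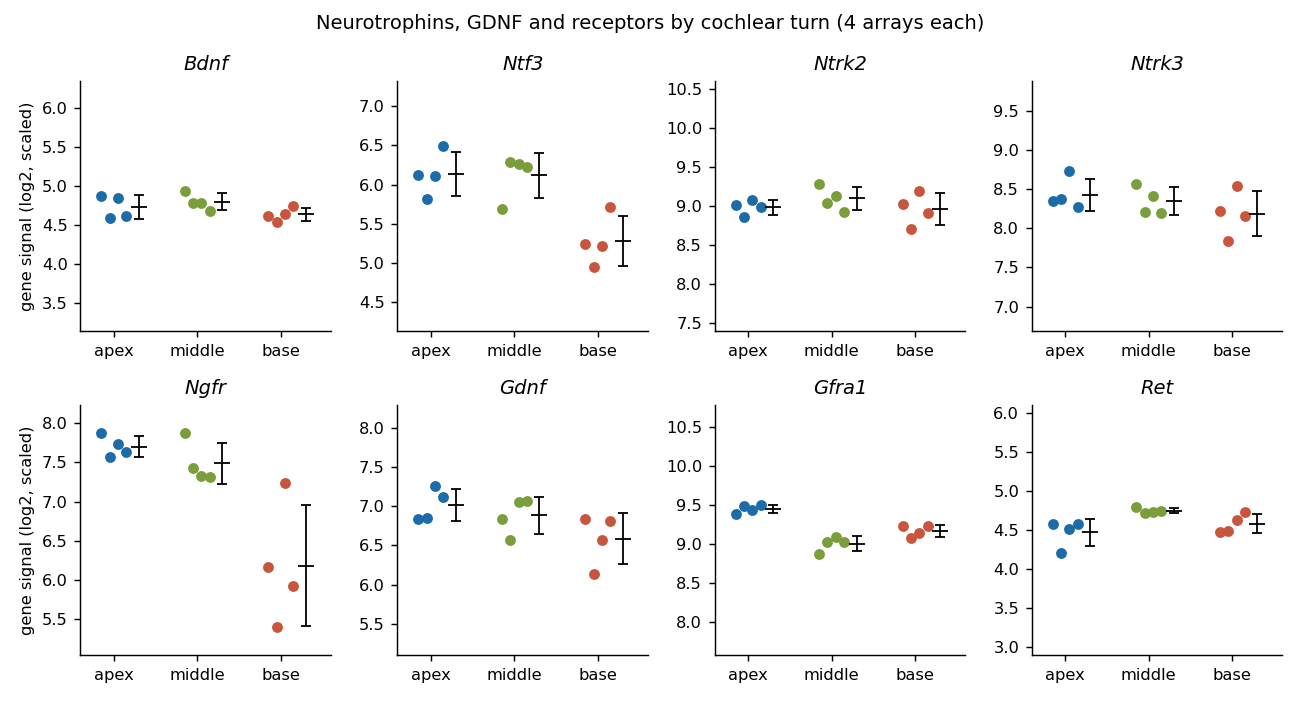
Gene signal of the 8 genes on each array (log2, scaled, y axis) by turn (x axis), with the mean and SD of 4 arrays beside the points; each panel spans the same number of log2 units. Ntf3 and Ngfr were lower in the base, Gfra1 was highest in the apex, and Ntrk2 and Ntrk3 overlapped between turns at the level of the whole gene.

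The whole-gene values of Ntrk2 and Ntrk3 average over exons that moved in opposite directions, so the probes are shown first. The membrane-spanning exon of Ntrk2 is in every receptor form that reaches the membrane. The exon with the Asn-Pro-Gln-Tyr docking site for the adaptor SHC lies beyond the end of short TrkB but before the end of short TrkC, and the Asp-Phe-Gly motif of the kinase lies beyond the short form's end in both genes. The probes below carry these features, read 5′ to 3′ as in the array files (mm9), and capitals mark the run of hydrophobic codons (A_55_P2006792), the docking-site codons (A_56_P095549 and A_56_P047472), the Asp-Phe-Gly codons (A_56_P095552 and A_55_P2056533) and the stop codon of short TrkC (A_55_P2006808).
Ntrk2 A_55_P2006792, chr13:58979563-58979622, plus strand: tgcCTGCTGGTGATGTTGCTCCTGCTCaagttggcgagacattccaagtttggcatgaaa
Ntrk2 A_56_P095549, chr13:59087285-59087344, plus strand: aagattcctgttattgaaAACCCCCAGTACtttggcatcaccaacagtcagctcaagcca
Ntrk2 A_56_P095552, chr13:59161764-59161823, plus strand: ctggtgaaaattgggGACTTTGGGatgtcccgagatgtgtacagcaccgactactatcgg
Ntrk3 A_56_P047472, chr7:85500913-85500972, minus strand: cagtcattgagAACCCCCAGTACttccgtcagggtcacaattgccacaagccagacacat
Ntrk3 A_55_P2006808, chr7:85447515-85447574, minus strand: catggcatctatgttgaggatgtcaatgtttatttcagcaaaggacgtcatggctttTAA
Ntrk3 A_55_P2056533, chr7:85392044-85392103, minus strand: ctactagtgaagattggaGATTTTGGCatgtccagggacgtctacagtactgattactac
The letters AACCCCCAGTAC, searched on both strands, were in 3 of 165984 probes (0.00181%), 2 of them the probes above. GACTTTGGG was in 0.0771% of probes and GATTTTGGC in 0.0795%. The 2 kinase probes shared 44 of 57 aligned bases and the 2 docking-site probes 35 of 53. In A_55_P2006808 none of the 19 codons before TAA was a stop.

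Ntrk2, which encodes TrkB, had 19 probes between chr13:58907979 and chr13:59230995 (mm9, plus strand), all detected. By their place relative to the probes annotated to the short form's transcript alone, 12 probes lay before the split, 1 was particular to the short form and 6 lay on the kinase side. Between apex and base, 10 of the 12 probes before the split and the short-form probe were called with the base higher, while all 6 kinase-side probes were called with the apex higher. Of all probes 16.4% were called with the base higher and 18.0% with the apex higher, 34.4% together, and of the 84 probes of the 8 genes 15 and 24 were. Between middle turn and base 11 and 12 of the 84 were called with the base and the middle turn higher (6.02% and 7.76% of all probes, 13.8% together), and between apex and middle turn 4 and 7 with the middle turn and the apex higher (2.86% and 3.04%, 5.90% together).

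The short-form probe, A_65_P04961, gave 907, 912, 913 and 973 on the apical arrays, 1137, 1302, 1139 and 1166 on the middle arrays and 1937, 1761, 1582 and 1906 on the basal arrays. Signal rose from apex to middle turn to base with no overlap between any of the turns, 1.93-fold from apex to base (log2 fold change -0.95 ± 0.08, SE, apex minus base; adjusted p = 1.32e-05 by limma over all probes). The step from apex to middle turn was also called (-0.36 ± 0.08, adjusted p = 0.0254), as was that from middle turn to base (-0.60 ± 0.08, adjusted p = 0.00104).

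The membrane-spanning probe, A_55_P2006792, went the same way. Its mean was 3048 ± 262 in apex, 3777 ± 231 in middle turn and 5381 ± 560.4 in base (SD, n = 4), a 1.76-fold difference between apex and base (limma adjusted p = 0.0001). Along the 10 called probes before the split the log2 fold change, apex minus base, went from -0.34 to -0.92, with the larger values toward the membrane-spanning exon. The first 2 probes at the 5′ end had 0.15 and -0.05 and were not called (adjusted p = 0.193 and 0.902).

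The 6 kinase-side probes had the opposite direction. The probe with the Asp-Phe-Gly codons gave 166, 113, 174 and 144 on the apical arrays, 208, 117, 134 and 100.1 on the middle arrays and 53.6, 27.8, 116 and 41.7 on the basal arrays. The third base array lay within the range of the apex and of the middle turn, and the other 3 base arrays lay below every apical and middle array. The difference between apex and base was 2.84-fold (log2 1.51 ± 0.38, adjusted p = 0.0105), and that between middle turn and base was 2.59-fold (adjusted p = 0.0355). Over the 6 kinase-side probes the log2 fold change, apex minus base, was 0.95 to 1.51. The docking-site probe, the first on the kinase side, had 1.41 (adjusted p = 0.0165). Between middle turn and base 4 of the 6 were called, and none was between apex and middle turn, where the values were 0.00 to 0.15.

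**Figure D2:**
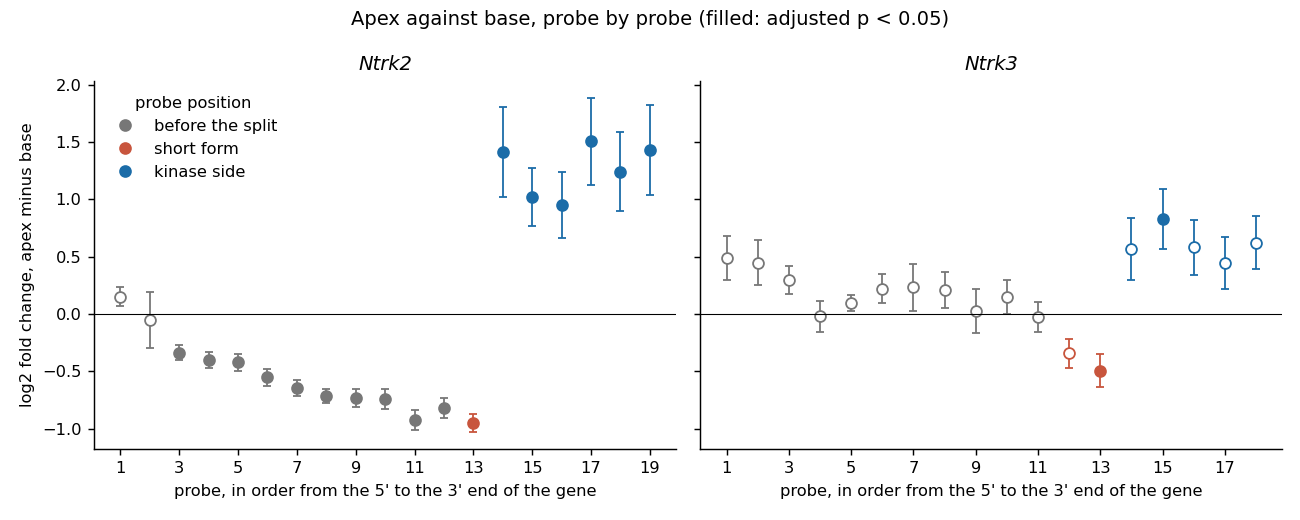
Log2 fold change, apex minus base (y axis, bars SE), of each probe of Ntrk2 and Ntrk3 in order from the 5′ to the 3′ end (x axis), coloured by position relative to the end of the short receptor form, with filled points for adjusted p under 0.05. In Ntrk2 the values went from 0.15 to -0.95 up to the short-form probe and lay between 0.95 and 1.51 beyond it.

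A test of each probe against the mean of the other probes of its gene removes what the whole gene does. In that test, again limma over all probes of genes with 3 or more probes, 24 of the 82 testable probes of these genes departed from the rest of their gene between apex and base, against 10.4% of all such probes. Of the 24, 16 belonged to Ntrk2 (9 before the split, the short-form probe and all 6 on the kinase side) and 5 to Ntrk3. Since each probe is set against the others, departures of the 2 sides of one gene are not independent of each other. Between middle turn and base 3 of 82 departed, all of Ntrk2 (1 before the split, the short-form probe and 1 on the kinase side), against 0.949% of all probes. That count was 21 without the third base array and 0 without any other single array. Between apex and middle turn none departed at an adjusted p under 0.05 by limma (0.240% of all probes did), and 7 of 82 had an unadjusted p under 0.05. Genes with a called, departing probe in each direction between apex and base numbered 730 of 14904 (4.90%), among them Ntrk2 and Ntrk3.

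Ntrk3, which encodes TrkC, had 18 probes between chr7:85337455 and chr7:85722481 (mm9, minus strand), all detected on every array. Of these 11 lay before the split, 2 were particular to the short form and 5 on the kinase side. No probe before the split was called in any comparison, with log2 fold changes of -0.03 to 0.49 between apex and base. On the kinase side all 5 values were positive, 0.44 to 0.83, and 1 was called. The 2 short-form probes had -0.34 and -0.49, and 1 was called.

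The called kinase-side probe, A_56_P047474, gave 384, 345, 471 and 325 on the apical arrays, 455, 305, 366 and 263 on the middle arrays and 204, 137, 353 and 205 on the basal arrays. The third base array again lay within the apical range, and the other 3 lay below it. Its log2 fold change was 0.83 ± 0.26 (adjusted p = 0.0298). The called short-form probe, A_52_P500274, gave 414, 549, 619 and 513 on the apical arrays, 616, 484, 632 and 633 on the middle arrays and 713, 614, 781 and 826 on the basal arrays. The third apical array lay above the lowest base array. Its log2 fold change was -0.49 ± 0.14 (adjusted p = 0.019). The short-form probe with the stop codon had means of 392 in apex and 502 in base (-0.34 ± 0.13, adjusted p = 0.0574).

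Against the rest of Ntrk3, both short-form probes were lower in the apex (-0.62, adjusted p = 0.0105, and -0.78, adjusted p = 0.00758), and the docking-site probe of Ntrk3, which lies before the split, departed in the same direction (-0.28, adjusted p = 0.022). The docking-site probe of Ntrk2, which lies beyond the split, departed in the other direction (1.47, adjusted p = 0.018). Of the Ntrk3 kinase-side probes, A_56_P047474 (0.63, adjusted p = 0.0186) and A_66_P118329 (0.40, adjusted p = 0.0379) departed upward in the apex.

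The kinase-side signal was set against the short-form signal within each array, as a mean of log2 signals over the probes of each side. This ratio was formed after the probe values had been seen and is given without a test, and its level has no meaning because different probes are compared, so only differences between turns are read. For Ntrk2 it was -1.45, -1.88, -1.38 and -1.78 on the apical arrays, -1.42, -2.42, -2.00 and -2.37 on the middle arrays and -3.90, -4.61, -2.62 and -4.21 on the basal arrays. Every base array lay below every other array, and the mean difference between apex and base was 2.21 on the log2 scale, or 4.64-fold. Without the third base array it was 2.62.

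For Ntrk3 the same ratio was 0.58, 0.12, 0.69 and 0.28 on the apical arrays, 0.43, 0.38, 0.33 and -0.29 on the middle arrays and -0.68, -0.92, -0.18 and -0.66 on the basal arrays. The apex and the base did not overlap, with a difference of 1.03 on the log2 scale (2.04-fold), while the fourth middle array lay inside the base range. Between apex and middle turn the differences were 0.43 for Ntrk2 and 0.20 for Ntrk3, and the arrays overlapped for both genes.

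**Figure D3:**
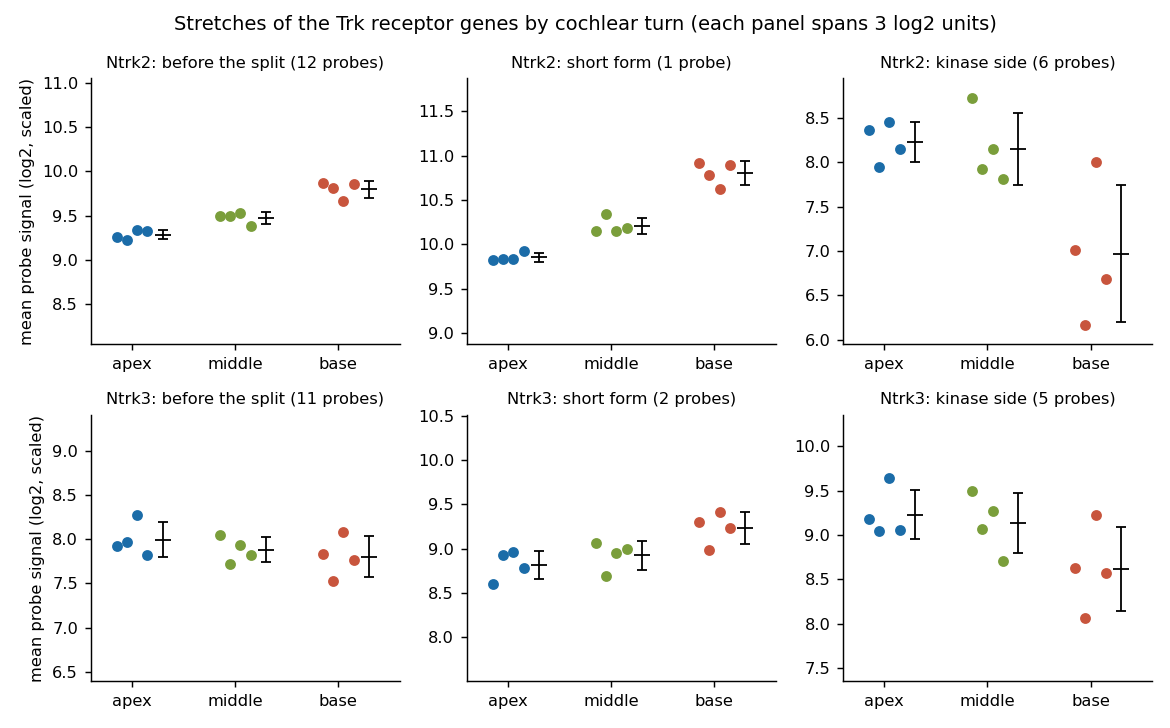
Mean log2 signal (y axis) of the probes before the split, of the short form and on the kinase side of Ntrk2 (upper row) and Ntrk3 (lower row) on each array, by turn, with the mean and SD of 4 arrays. The short-form signal of Ntrk2 rose from apex to base without overlap while its kinase-side signal fell in 3 of 4 base arrays. For the short form and the kinase side, Ntrk3 showed smaller shifts with the same signs. Before the split the signs differed, with mean log2 signals in apex and base of 9.285 and 9.8 for Ntrk2 and 7.995 and 7.802 for Ntrk3.

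At the level of the whole gene neither receptor was called. Ntrk2 had means of 507 ± 33 in apex, 549 ± 58 in middle turn and 501 ± 69 in base (SD, n = 4), with a log2 fold change between apex and base of 0.02 (adjusted p = 0.89). Its whole-gene value depends on how probes are combined. With the log2 of the mean linear signal, which weights bright probes, the log2 fold change was -0.50 (adjusted p = 4.78e-05), and with the median of the probes it was -0.34 (adjusted p = 0.00212). Ntrk3 had means of 348 ± 52, 327 ± 41 and 296 ± 60 (0.24, adjusted p = 0.245). The ratio of Ntrk3 to Ntrk2 within arrays did not pass a two-sided exact permutation test in any pair of turns (adjusted p over 9 such ratio tests between 0.0856 and 0.743).

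Ngfr showed the largest fold change of the 8 genes. Its 6 probes lie between chr11:95430211 and chr11:95448887 (mm9, minus strand), and all of them were detected, on every apical and middle array, and 2 of them also on every base array. Ngfr gave 235, 189, 213 and 198 on the apical arrays, 235, 172, 161 and 159.5 on the middle arrays and 71.9, 42.2, 150.3 and 60.8 on the basal arrays. No base array reached the apical or the middle range, though the third base array came close to the lowest middle array. The apex was 2.87-fold above the base (log2 1.52 ± 0.31, adjusted p = 0.00239) and the middle turn 2.48-fold (1.31 ± 0.31, adjusted p = 0.0127). Apex and middle turn differed by 0.21 ± 0.31 (adjusted p = 0.674). Ngfr was the only one of the 8 genes that passed limma's F test over the 3 turns (adjusted p = 0.0047) with a 2-fold difference, which 4.39% of all genes did for apex and base and 2.66% for middle turn and base.

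All 6 Ngfr probes were called between apex and base, the apex higher, with log2 fold changes of 0.80 to 2.10. The probe with the largest change, A_56_P201127, gave 81.9 to 96.0 on the apical arrays and 21.3, 9.09, 56.7 and 15.5 on the basal arrays, of which 2 were above background, and it also departed from the rest of the gene (0.70, adjusted p = 0.0267). Without the third base array the gene difference between apex and base was 1.87 ± 0.19 (adjusted p = 5.11e-05).

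The base arrays also differed from the rest in markers of cell types. In bulk tissue, fewer cells of a type and less RNA per cell cannot be told apart. Counts of called markers stand against 17.6% of all genes called between apex and base with the apex higher and 21.6% with the base higher. Of 17 markers of spiral ganglion neurons on the array, 14 were called between apex and base with the apex higher and 1 with the base higher. Their summed signal was 50811 to 65454 in apex, 49748 to 86695 in middle turn and 12493 to 46432 in base. The third base array gave the 46432, and the other 3 base arrays gave 21878, 12493 and 17546. The order of the 4 base arrays in this sum was the order of Ngfr and of the kinase-side signal of both Trk genes. Of 13 Schwann and satellite cell markers, 9 were called with the apex higher than the base and none with the base higher, with sums of 19100 to 20944, 20158 to 24105 and 10787 to 18147 in apex, middle turn and base. The 4 base arrays, at 14021, 10787, 18147 and 12469, had the same order in this sum too. Of 15 hair cell markers, 14 were called with the apex higher, with sums of 16641 to 21123, 12898 to 14881 and 5285 to 7833. Of 14 supporting cell markers, 7 were called with the apex higher and 4 with the base higher. Their mean log2 signal was highest in apex (9.48 to 9.55, against 9.06 to 9.10 in middle turn and 8.65 to 8.87 in base), while their summed signal, which the brightest probes dominate, was largest in base.

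Most of the other lists moved toward the base, as the Ntrk2 short-form probe did. Of 16 stria vascularis markers 14 were called with the base higher and none with the apex higher (sums of 83413 to 91918, 105477 to 138523 and 123314 to 151455 in apex, middle turn and base). Of 12 endothelium and pericyte markers 8 were called with the base and 2 with the apex higher (8232 to 10069, 10022 to 12104 and 12038 to 14036). Of 12 spiral ligament fibrocyte markers 7 were called with the base and 3 with the apex higher (393147 to 439569, 505175 to 566557 and 701060 to 791055). Of 14 macrophage and blood markers 8 were called with the base higher and none with the apex higher, with sums that overlapped between turns. The bone list gave no clear direction. Of 12 bone markers 2 were called with the base and 1 with the apex higher. Their median log2 fold change, apex minus base, was 0.11, while their sums were larger in base (75539 to 85570) than in apex (44527 to 68467). Every listed marker on the array was detected. The part of these cell types in the results for any of the 8 genes was not tested.

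**Figure D4:**
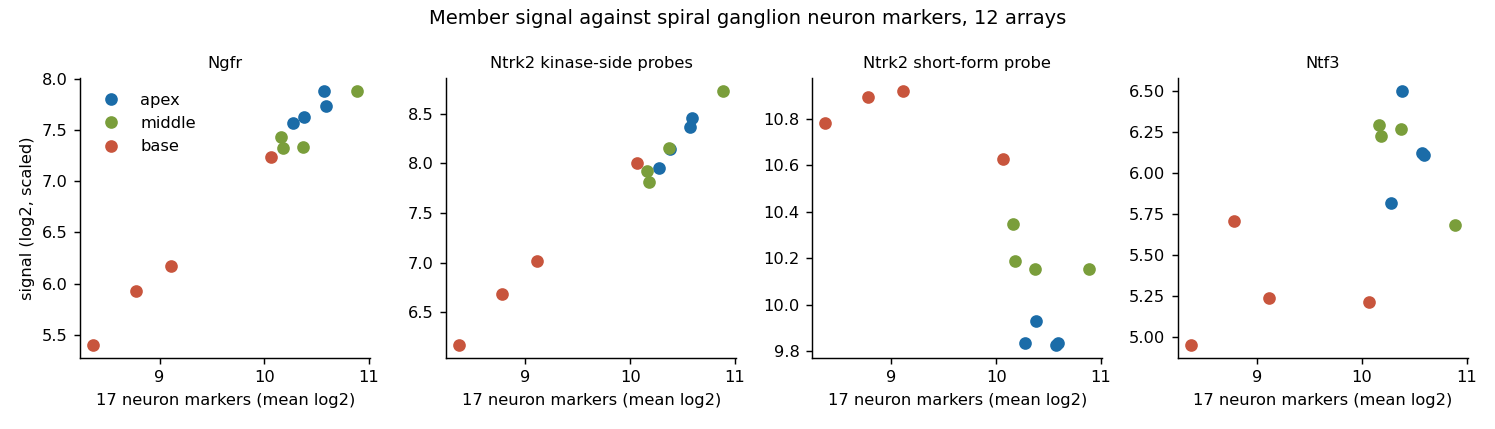
Signal of Ngfr, of the kinase-side probes and the short-form probe of Ntrk2, and of Ntf3 (log2, scaled, y axes) against the mean log2 signal of 17 spiral ganglion neuron markers (x axis), with 1 point per array coloured by turn. The third base array, which had the most neuron marker signal of the base arrays, also had the most Ngfr and kinase-side signal and the least short-form signal of that turn. It had the most Schwann and satellite cell marker signal of that turn as well, which is not shown.

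Ntf3, the gene of NT-3, had 2 probes on chromosome 6 (chr6:126051431-126114807, mm9, minus strand), of which 1 was detected. Ntf3 gave 69.7, 56.3, 68.9 and 90.4 on the apical arrays, 51.3, 78.4, 77.1 and 74.8 on the middle arrays and 37.6, 30.9, 37.0 and 52.3 on the basal arrays. Every base array lay below every apical array, and the fourth base array slightly exceeded the lowest middle array. Apex and base differed 1.82-fold (log2 0.86 ± 0.19, adjusted p = 0.00433), middle turn and base 1.79-fold (0.84 ± 0.19, adjusted p = 0.0116), and apex and middle turn by 0.02 ± 0.19 (adjusted p = 0.96).

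The detected Ntf3 probe, A_55_P2021565, gave 174, 153, 166 and 205 on the apical arrays, 127, 157, 179 and 179 on the middle arrays and 73.9, 89.7, 84.8 and 92.2 on the basal arrays. Here neither apex nor middle turn overlapped with the base, and the fold change was 2.04 between apex and base (adjusted p = 0.000218) and 1.87 between middle turn and base (adjusted p = 0.00181). Markers of hair cells, of spiral ganglion neurons and of Schwann and satellite cells all had their lowest sums in base too, as given above. Supporting cell markers had their lowest mean log2 signal in base, though their largest sums. Among the base arrays Ntf3 and the hair cell sum were highest on the fourth. The sums for neurons and for Schwann and satellite cells were highest on the third. The part of these cells in the Ntf3 result was not tested. With spike-in scaling the gene-level difference between apex and base was 0.44 (adjusted p = 0.0726). The fourth apical array had the highest Ntf3 and also the highest sums of bone and of macrophage and blood markers in that turn (68467 and 97137, against at most 47160 and 41986 in the other apical arrays), and without it the difference was 0.74 (adjusted p = 0.0124).

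Bdnf, the gene of BDNF, was dim. Of its 7 probes on chr2:109515418-109567020 (mm9, plus strand), 4 were not detected, and the gene signal averages over them. Bdnf gave 29.3, 24.0, 28.6 and 24.5 on the apical arrays, 30.7, 27.4, 27.6 and 25.6 on the middle arrays and 24.5, 23.3, 25.0 and 26.8 on the basal arrays. The turns overlapped, and no comparison was called (log2 fold changes of 0.09, -0.07 and 0.16 for apex minus base, apex minus middle turn and middle turn minus base, adjusted p = 0.445, 0.621 and 0.197). The 3′-most probe, A_55_P2036303, was detected. Its values were 263 to 288 on the apical arrays, 208 to 262 on the middle arrays and 149.9 to 248 on the basal arrays. The apex lay above the base on every array. It lay only just above the middle turn, and that difference was not called (log2 fold change 0.22, adjusted p = 0.32). Between apex and base the log2 fold change of this probe was 0.47 ± 0.13 (adjusted p = 0.02). It departed by 0.44 (adjusted p = 0.0496) from the rest of the gene, which includes the 4 probes that were not detected. The other detected probes, A_56_P023435 and A_56_P023436, were not called between apex and base (-0.08, adjusted p = 0.575, and 0.10, adjusted p = 0.228). The ratio of Ntf3 to Bdnf within arrays was 0.77 higher on the log2 scale in apex than in base, with the smallest p that 4 arrays against 4 allow (two-sided exact permutation test, p = 0.0286), but it did not pass adjustment over the 9 ratio tests (adjusted p = 0.0644).

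Gfra1, the GPI-anchored co-receptor that binds GDNF, had a small difference with little spread. Its 8 probes on chr19:58311604-58528858 (mm9, minus strand) were all detected on every array. Gfra1 gave 670.4, 716, 694 and 723 on the apical arrays, 467, 520.1, 547 and 522 on the middle arrays and 599, 541, 563 and 599.9 on the basal arrays. Every apical array lay above every other array, while middle turn and base overlapped. The difference was 1.36-fold between apex and middle turn (log2 0.45 ± 0.06, adjusted p = 0.00179) and 1.22-fold between apex and base (0.29 ± 0.06, adjusted p = 0.00293). Between middle turn and base it was -0.16 ± 0.06 (adjusted p = 0.0734). Of the 8 probes the same 7 were called with the apex above the base and above the middle turn, all but A_52_P398998 (0.02, adjusted p = 0.891, and 0.36, adjusted p = 0.09). With spike-in scaling the difference between apex and base was -0.13 (adjusted p = 0.274), above the median of all genes at -0.45, and that between apex and middle turn was 0.29 (adjusted p = 0.0565).

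Gdnf, the ligand, had 3 probes on chr15:7761055-7787533 (mm9, plus strand), 2 of them detected. Gdnf gave 115, 115, 154 and 139 on the apical arrays, 114, 94.8, 134 and 135 on the middle arrays and 114, 70.4, 94.9 and 112 on the basal arrays. The apex lay just above the base without overlap, but the difference of 0.43 ± 0.17 was not called (adjusted p = 0.0681). Both detected probes were called with the apex above the base (0.24, adjusted p = 0.0487, and 0.43, adjusted p = 0.0228). With detected probes alone, the gene difference was 0.34 (adjusted p = 0.002).

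Ret, the kinase shared by the GDNF family, was near background over most of its length. Of 21 probes on chr6:118101791-118147612 (mm9, minus strand), 13 were not detected. Ret gave 23.9, 18.5, 22.9 and 23.9 on the apical arrays, 27.8, 26.3, 26.6 and 26.8 on the middle arrays and 22.3, 22.4, 24.9 and 26.6 on the basal arrays. The apex lay below the middle turn on every array, with a difference of -0.28 ± 0.09 that was not called (adjusted p = 0.0646). Between apex and base the difference was -0.11 ± 0.09 and was not called either (limma adjusted p = 0.376). With detected probes alone, Ret was called between apex and base with the apex lower, as it was in 4 of 27 alternatives in all. One detected probe, A_56_P158579, gave 182, 178, 146 and 167 on the apical arrays, 226, 244, 249.6 and 275 on the middle arrays and 291, 306, 248 and 276 on the basal arrays. The apex was below both other turns without overlap, by 1.67-fold against the base (adjusted p = 0.000249) and 1.48-fold against the middle turn (adjusted p = 0.0094). The probe departed from the rest of the gene (-0.66, adjusted p = 0.0211). Most of the probes it was set against were not detected, and signals near background can hardly follow a change. Of the 21 probes 3 were called between apex and base, this one among them, all with the base higher. The ratio of Gfra1 to Ret within arrays was highest in the apex, 0.73 above the middle turn and 0.40 above the base on the log2 scale, with no overlap between any 2 turns (two-sided exact permutation p = 0.0286 for each, adjusted p = 0.0644 over 9 tests).

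Between apex and base the arrays did not overlap for 4 of the 8 genes (Ntf3, Ngfr, Gdnf and Gfra1), all with the apex higher, against 16.9% of all genes in that direction, 21.4% in the other and 38.3% together. Between apex and middle turn they did not overlap for Gfra1 and Ret (20.8% of all genes, 7.30% with the apex and 13.5% with the middle turn higher), and between middle turn and base for Ngfr (24.1%, 12.5% with the middle turn and 11.6% with the base higher).

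A list of 33 other genes of the neurotrophin system, none of the 8 among them, had 32 on the array. Between apex and base 10 were called with the apex higher and 7 with the base higher (17.6% and 21.6% of all genes were), with a median log2 fold change of 0.02 against -0.04 for all genes. The ligand Ntf5 (NT-4/5) was higher in the base, with a mean of 293 ± 37 against 199 ± 10.1 in apex (-0.55 ± 0.12, adjusted p = 0.00386) and 199.5 ± 33 in middle turn (adjusted p = 0.00924).

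Of the list 5 genes were called between apex and base with a 2-fold difference, Lingo1, Pcsk2, Sorcs1, Bex1 and Ndn, all with the apex higher. Lingo1, a co-receptor of p75, had 1 probe, which was not well above background on any base array. As a bound, it was at least 3.05-fold higher in the apex and at least 3.12-fold higher in the middle turn. The limma tests used the measured base values instead, with log2 fold changes of 2.175 (adjusted p = 0.00284) and 2.208 (adjusted p = 0.00707). Bex1 and Ndn, which bind the intracellular part of p75, were higher in the apex by 1.01 (adjusted p = 2.34e-06) and 1.00 (adjusted p = 0.000721). Among the 5 listed genes of the sortilin family, whose founding member takes up proneurotrophins, 1 was called with the apex higher, 2 with the base higher and 2 were not called. Sorcs1 was the one higher in the apex (1.15 ± 0.19, adjusted p = 0.000667). Sort1, the gene of sortilin, had means of 809, 799 and 805 in apex, middle turn and base (0.01 ± 0.04, adjusted p = 0.902). Pcsk2, a proprotein convertase of secretory granules, was higher in the apex by 1.44 (adjusted p = 0.00184).

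**Figure D5:**
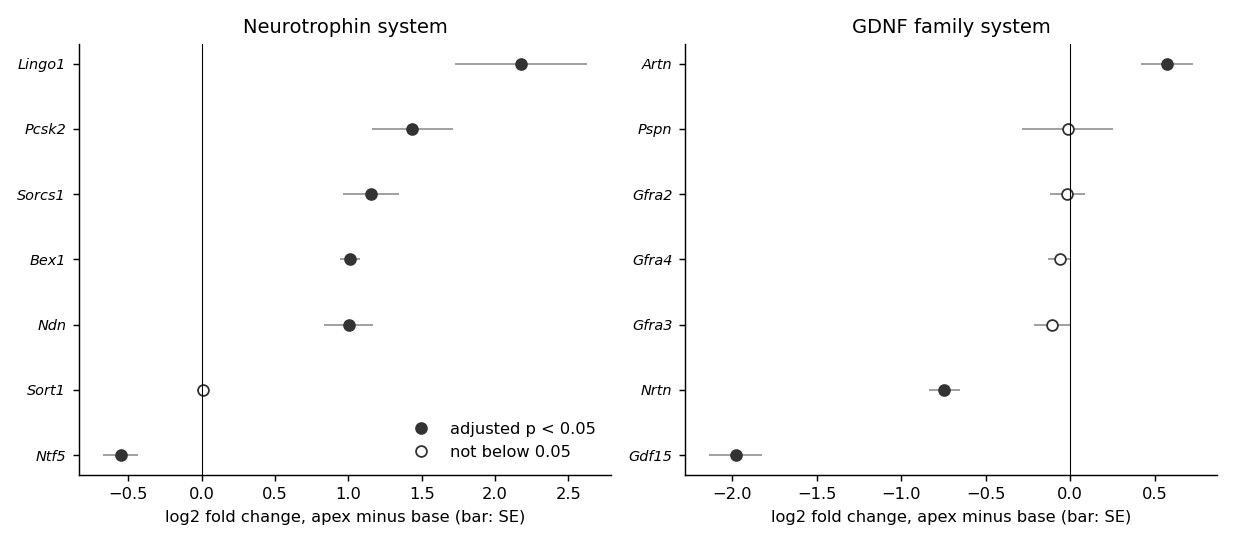
Log2 fold change, apex minus base, with SE (x axes) of the genes named in the text from the lists of the neurotrophin system (left) and of the GDNF family system (right), filled where the adjusted p was under 0.05. Lingo1, not above background on any base array and so shown at its fitted value, and Gdf15 lie furthest from 0 in the 2 panels.

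In a list of 17 other genes of the GDNF family system, 3 were called with the apex and 3 with the base higher between apex and base (17.6% and 21.6% of all genes were), with a median log2 fold change of -0.05. Neurturin (Nrtn), the ligand that prefers GFRa2, was higher in the base, with means of 1356 ± 71, 1447 ± 97 and 2286 ± 328 in apex, middle turn and base (-0.75 ± 0.09 for apex minus base, adjusted p = 0.000121). Artemin (Artn) went the other way (0.57 ± 0.15, adjusted p = 0.0115). The ligand Gdf15, which signals through GFRAL and RET, stepped up along the cochlea with means of 95.8 ± 14.5, 228 ± 37 and 379 ± 71 and no overlap between turns (-1.98 ± 0.16 between apex and base, adjusted p = 5.99e-06, and -1.25 ± 0.16 between apex and middle turn, adjusted p = 0.00126). Of the other co-receptors, Gfra4 was highest in the middle turn (356 ± 27, against 280 ± 12 in the apex, adjusted p = 0.0115, and 292 ± 20 in the base, adjusted p = 0.0143), as was Gfra3 (33.1 ± 4.3, against 24.6 ± 2.6, adjusted p = 0.0248, and 26.4 ± 1.8, adjusted p = 0.0496). Gfra2 was not called in any comparison, and Pspn had no detected probe.

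Of 26 genes that respond to or relay signals of receptor tyrosine kinases, 6 were called with the apex above the base and 5 with the base above the apex, against 17.6% and 21.6% of all genes, with a median log2 fold change of -0.01. Egr2, a transcription factor of growth-factor signaling that is also required in myelinating Schwann cells, was higher in the apex (1.17 ± 0.20, adjusted p = 0.000988) and in the middle turn (1.23 ± 0.20, adjusted p = 0.0025) than in the base.

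The genes whose signal followed each of the 8 most closely over the 12 arrays were found by Pearson's r among 16014 genes, a description over arrays that share their turns. For Ngfr they included Ina and Snap91, each with r = 0.996. For Ntrk3 they were Rapgef4 (0.969), Ttc13 (0.913) and Tcerg1l (0.909), and for Ntrk2 Fam43b (0.941), Kcnip1 (0.941) and Clec18a (0.93). Ntf3 was followed by Aox3l1 (0.954), 9030425E11Rik (0.937) and Fbln5 (0.932), and Bdnf by Amelx (0.911), Dysf (0.871) and Mapk11 (0.863). For Gfra1 they were Sntb1 (0.939), 2610008E11Rik (0.937) and Stim2 (0.937), for Gdnf Tulp4 (0.906), Lonrf1 (0.892) and Cry2 (0.889), and for Ret Il12rb2 (0.952), Tomm5 (0.916) and Slc25a12 (0.905).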

How the data were processed

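The authors made the deposited intensity values from scanned single-color exon arrays with Agilent Feature Extraction 10.7.3.1, and per the file headers the processed signal is background-subtracted, with no normalization between arrays and probe positions in mm9. The deposited series table holds the same intensities (largest difference 0, column medians 157.6 to 219.1) and served as an alternative. The 8 genes and all gene lists were chosen with earlier results of these data known.

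The 7914 control spots among 180880 were dropped, as were spots marked non-uniform, as population outliers or by hand on any array, which removed 119 probes. Signals were scaled to the 75th percentile (534 to 721.6 before scaling, brought to 640.8), transformed to log2 and averaged over the spots of a probe and over the probes of a gene. The arrays had 77.4% to 81.4% of spots well above background, and none was saturated. limma 3.58.1 in R 4.3.3 was fitted over all genes or probes and all 12 arrays, with Benjamini-Hochberg adjustment per comparison, and was checked on simulated data. Precision is limited by 4 arrays per turn.

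Named were the 8 genes, the detected probe of each with the largest change between apex and base, probes departing from their gene, listed genes called with a 2-fold difference, a fixed set of ligands and receptors (Ntf5, Sort1, Nrtn, Artn, Pspn, Gfra2, Gfra3 and Gfra4) and the 3 genes most alike, of which a few are not reported here. The printed probes and other probes were named after their values were seen. Alternatives covered scaling, background, pseudocount, dim probes, flags, probe summary, test, block and left-out arrays. Probes were annotated by the files, with no genome at hand to remap them.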

Additional observations from a re-analysis of the deposited data

Results flagged for a closer look

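Groups of 4 arrays were searched for an array far from the other 3, over the 8 genes and the stretches of Ntrk2 and Ntrk3 in each turn, 42 groups in all, of which chance flags about 1 in 20. There were 3 such arrays. For Ntf3 in the middle turn, the first array had 51.3 and the others 74.8 to 78.4 (gap over range 0.888). For Ret in the apex, the second array had 18.5 and the others 22.9 to 23.9 (0.83), close to background. For the short-form probe of Ntrk2 in the apex, the fourth array had 973 and the others 907 to 913 (0.905), which left it below every middle and base array.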

How the results depend on the processing

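The calls for Ngfr held under all 27 alternatives in apex against base and middle turn against base, as did Ntf3 in middle turn against base. The deposited series table is among the 27, and since it holds the same intensities, its result could not differ. Ntf3 and Gfra1 in apex against base, and Gfra1 in apex against middle turn, were called in 26 of 27, the exception being spike-in scaling, which turned Gfra1 in apex against base to -0.13. The number of the 8 genes called in apex against base rose from 3 to 5 with only probes well above background or the median of probes and to 6 with the log2 of the mean linear signal. In apex against middle turn it was 2 with quantile normalization, median scaling or the replicate block and 3 with the mean linear signal, and in middle turn against base 4 with the mean linear signal. Fitting only the arrays of the turns compared gave 7 and not 11 called probes in apex against middle turn and 10 and not 23 in middle turn against base. Probes departing from their gene in middle turn against base (3, with 37 of 82 at an unadjusted p under 0.05) numbered 1 with quantile normalization, 18 with normexp background, 7 with a pseudocount of 16, 6 with the replicate block, and 0 with the ordinary ANOVA contrast or only the arrays compared (35 and 36 at an unadjusted p under 0.05). They numbered 20 without the third base and the fourth apical array together, an alternative chosen after seeing the data, as were all alternatives for departing probes and for the kinase-side ratio.

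Leaving out single arrays gave 14 to 27 departing probes in apex against base (14 without the first apical and 15 without the second base array), 0 to 21 in middle turn against base (21 without the third base array, 0 without any other), 5 to 16 called probes in apex against middle turn (5 without the second apical, and 7 without the first or the third apical or the second or the fourth middle array) and 14 to 29 in middle turn against base (14 without the second or the fourth base array). None of the ratios of gene pairs passed. With so few arrays the exact test has a coarse smallest p, and ratios with single arrays left out were compared by size alone. Their tests thus say little of stability. The differences of Ntf3 over Bdnf between apex and middle turn (0.09) and of Ntrk3 over Ntrk2 between middle turn and base (0.02) changed sign under some alternatives, among them single arrays left out (-0.11 to 0.16 and -0.01 to 0.06), and the other pairs did not. The ratios of the Trk forms moved by less than 1 SD under the alternatives run. The labels do not say that equal numbers mark one animal, so arrays were not paired. In their deviations from the turn means, same-number pairs of arrays correlated at -0.04 to 0.23 (mean 0.10). Pairs with different numbers correlated at -0.26 to 0.25 (mean -0.03). Deviations cancel out within a turn, which ties these means to each other, so they cannot decide whether equal numbers mark one animal. Of the probes of Bdnf and Ret, 4 of 7 and 13 of 21 were not detected, which limits what their gene signals can show.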
